A study of Rattus norvegicus with 40 samples.

Results

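The 150 transcripts whose levels differed most from rat to rat in fat, beyond the difference between genotypes, are described here. They were chosen from 31715 Ensembl transcripts measured in each of 4 tissues. In each tissue, the transcripts with a mean of at least 5 TPM and at least 20 estimated counts in all 10 samples were taken as eligible, which were 11492 in fat. TPM is the level of a transcript scaled for its length and for library size. For each eligible transcript the SD of log2(TPM + 1) over the 10 samples was computed after the mean of each genotype had been subtracted. Each transcript was then given to the tissue in which its SD was largest, which left 4193 transcripts in fat. Of these, 117 were dropped because their mean level in fat was 20 or more times that of every other tissue, and the 150 of highest SD among the remaining 4076 were kept. The SD and the deviations behind it chose these members, so their values in fat are a description and carry no test.

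RNA was sequenced from the fat, liver, soleus muscle and hippocampus of heterozygous SHR-Tti2+/- rats and wild-type littermates, with 5 samples per genotype and tissue, drawn from 12 rats by RNA quality. All the rats share the inbred SHR/OlaIpcv background of the spontaneously hypertensive rat. The heterozygotes carry, in every cell, a small deletion made with zinc-finger nucleases in the first exon of Tti2, which encodes a partner of the kinases related to PI3-kinase, and they come from 1 line. The labels call the depot peritoneal, the methods call it perirenal, and no label gives the age of the sequenced rats.

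Fat is not made of adipocytes alone. A depot also holds stromal, vascular and immune cells, nerve fibres, sometimes lymphoid tissue and, around the kidney of rodents, thermogenic adipocytes, and its edge is cut by hand from neighbouring organs. In rats of an inbred strain the genome is nearly shared, so differences between animals can, in general, reflect the state and the composition of the piece as well as the handling of the sample. The files do not pair transcript identifiers with gene names. The members are therefore given by their SD rank from 1 to 150, their level in each tissue and their covariation, only 4 are named by identifier, the labelled tissue could not be checked against marker genes, and the level of Tti2 is not given here. For the same reason no sequence is shown.

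The fat libraries held 22416531 to 26822062 estimated counts, and the members were spread far more widely than counting error allows. The SD of the members had a median of 0.63 on the log2 scale and ran from 0.52 to 1.66, where all eligible transcripts had a median of 0.12, and 7 members reached an SD of 1 or more. The highest of the 10 TPM values of a member was a median of 5.40 times the lowest, between 2.93 and 57.3 times. The SD was a median of 8.36 times the SD that Poisson counting would give, and at least 3.03 times in each member, against a median of 2.32 times over all eligible transcripts. Poisson error does not include the division of reads between transcripts that share sequence. At the border of the list the SD was 0.523 in both of the last 2 members, and 0.522 and 0.521 in the next 2 transcripts outside, so the border separates no distinct class.

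The members were present at lower levels in fat than the eligible transcripts, and the tissue of their highest level differed from member to member. The mean level in fat had a median of 11.0 TPM, against 19.3 TPM over all eligible transcripts, and 69 members (46%) lay under 10 TPM, against 24.1% of eligible transcripts. Only 7 members exceeded 100 TPM, with a highest mean of 1079 TPM. The mean level was highest in fat for 77 members, in the hippocampus for 38, in the liver for 23 and in the soleus for 12. The fat share, 51.3%, compares with 41.8% of eligible transcripts, the hippocampus share, 25.3%, with 44.1%, the liver share, 15.3%, with 7.10%, and the soleus share, 8.0%, with 6.95%. The members had a median length of 1567.5 bases, against 2022 bases over all eligible transcripts.

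The member of highest SD was ENSRNOT00000092851.1, of 699 bases, whose largest deviation was downward. Its TPM in wild-type rats 1 to 5 was 246, 188, 259, 429 and 8.84, and in SHR-Tti2+/- rats 1 to 5 it was 428, 71.7, 89.5, 413 and 145. Wild-type rat 5 was thus 8.11 or more times below every other sample, and that rat carried 58.9% of the squared deviation. This transcript was abundant in every tissue, with means of 467 TPM in liver, 269 TPM in soleus and 1186 TPM in hippocampus.

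ENSRNOT00000057787.4, of 1858 bases and rank 3, was the other member chosen for a downward deviation. It had 12.2, 0.652, 30.6, 37.4 and 1.36 TPM in wild-type rats 1 to 5, and 9.18, 35.4, 18.8, 25.3 and 9.94 TPM in SHR-Tti2+/- rats 1 to 5. Both wild-type rat 2 and wild-type rat 5 lay low, so no single rat made its spread, and its highest value was 57.3 times its lowest, the widest ratio among the members. Its mean in liver, 30.6 TPM, was above its mean in fat, 18.1 TPM.

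ENSRNOT00000046857.3, of 835 bases and rank 2, stood out upward. Its TPM was 37.9, 1.91, 5.95, 32.9 and 3.15 in wild-type rats 1 to 5, and 20.2, 7.22, 2.70, 30.1 and 84.1 in SHR-Tti2+/- rats 1 to 5. The highest value, in SHR-Tti2+/- rat 5, was 43.9 times the lowest, and both genotypes held high and low rats. In the liver this transcript had a mean of 21421 TPM.

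ENSRNOT00000018097.6, of 791 bases and rank 7, was the other upward case, and its spread came from 1 sample. It had 9.07, 7.86, 5.87, 3.11 and 4.26 TPM in wild-type rats 1 to 5, and 5.93, 3.35, 4.68, 65.6 and 5.19 TPM in SHR-Tti2+/- rats 1 to 5. SHR-Tti2+/- rat 4 carried 70.4% of its squared deviation, and all other samples were at 9.07 TPM or less. In the soleus this transcript had a mean of 13521 TPM.

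**Figure D1:**
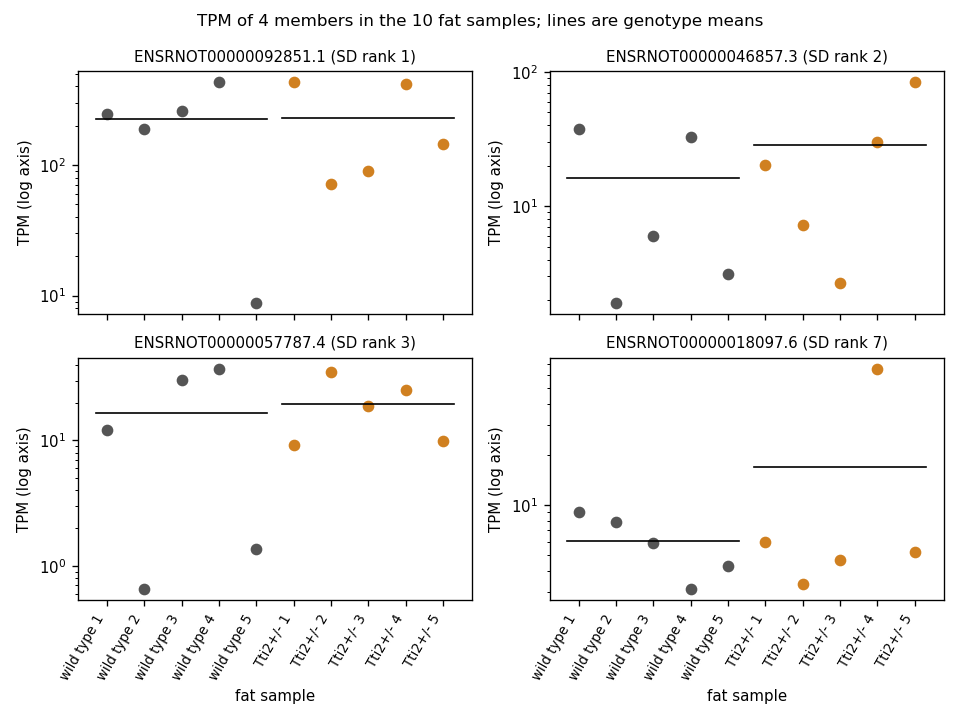
TPM (log axis) of the 4 named members in each of the 10 fat samples, with wild-type samples in grey, SHR-Tti2+/- samples in orange and lines at the genotype means. Wild-type rat 5 lies at 8.84 TPM for the member of rank 1, and SHR-Tti2+/- rat 4 at 65.6 TPM for the member of rank 7. The member of rank 2 has high and low rats in both genotypes, and that of rank 3 is lowest in wild-type rats 2 and 5.

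A genotype difference in fat was not detectable for any of these 4. A two-sided exact permutation test over all assignments of the samples compared the means of log2(TPM + 1), not the TPM means printed here. The difference on that scale, SHR-Tti2+/- minus wild type, was 0.35, 0.79, 1.02 and 0.48 for the 4 members in the order given next. The mean ± SD (n = 5 per genotype) in wild-type and SHR-Tti2+/- fat was 226 ± 151 and 229 ± 176 TPM for ENSRNOT00000092851.1 (exact permutation p = 0.849). For ENSRNOT00000046857.3 the means were 16.4 ± 17.5 and 28.8 ± 32.7 TPM (exact permutation p = 0.484), and for ENSRNOT00000057787.4 they were 16.4 ± 16.8 and 19.7 ± 11.0 TPM (exact permutation p = 0.365). For ENSRNOT00000018097.6 they were 6.03 ± 2.46 and 17.0 ± 27.2 TPM (exact permutation p = 0.770), and the higher mean of the heterozygotes rested on rat 4. In the fit over all 20221 transcripts tested in fat, edgeR gave this transcript a log2 fold change of 1.48 (SE 0.831) with a Benjamini-Hochberg adjusted p = 0.780, and without SHR-Tti2+/- rat 4 the log2 fold change was -0.34.

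In many members a single rat made most of the spread. A rat was said to drive a member when it held at least 50% of the member's squared deviations, of which 80% is the most that 1 rat among 5 can hold. This was so for 49 of the 150 members (32.7%), against 14.4% of the 11492 eligible transcripts. The members were chosen by the size of these deviations, so the comparison is a description. In 41 of the 49 the driving rat lay below its genotype mean and in 8 above it, and over all members the largest deviation was downward in 107 and upward in 43.

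Wild-type rat 3 stood apart from the others. It held the largest deviation of 43 members, downward in 38 and upward in 5, and drove 21 of them. SHR-Tti2+/- rat 2 held the largest deviation of 23 members, SHR-Tti2+/- rat 5 of 17, wild-type rat 4 of 13, and the remaining rats of 4 to 12 each. Over all eligible transcripts wild-type rat 3 also held the largest deviation most often, in 22.1%, followed by wild-type rat 4 with 19.1% and SHR-Tti2+/- rat 2 with 14.1%. The list therefore shares the lead of wild-type rat 3 with fat as a whole, whereas wild-type rat 4 had the largest deviation in a smaller share of the members (8.67%) than of all eligible transcripts. The library of wild-type rat 3 held 26259944 estimated counts. The part of depth in the deviations was not tested.

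**Figure D2:**
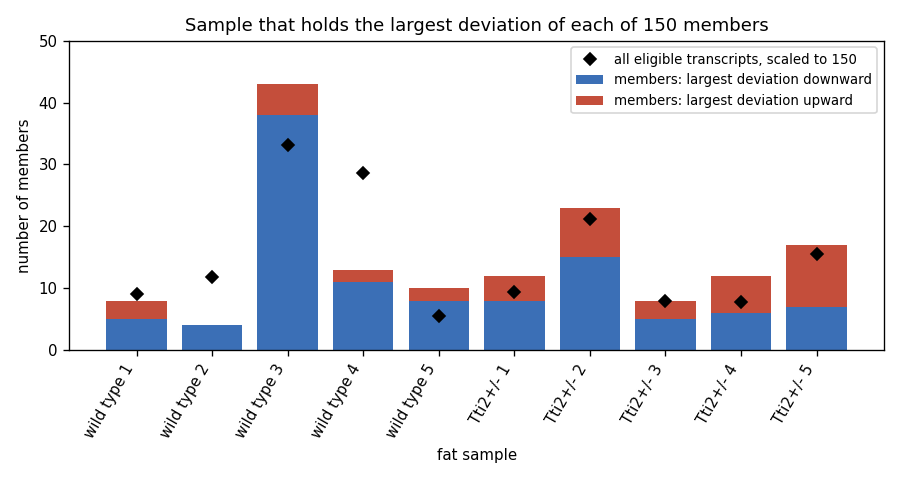
Number of the 150 members whose largest deviation from the genotype mean falls in each fat sample, split into downward (blue) and upward (red), with black diamonds for all 11492 eligible transcripts scaled to 150. Wild-type rat 3 has 43 members, 38 of them downward.

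The members did not vary as 1 block. Over the 11175 pairs of members the median Pearson correlation of the deviations across the 10 samples was 0.016. A correlation of 0.6 or more was found in 10.9% of the pairs and one of -0.6 or less in 5.85%, close to the 9.74% and 5.02% over all eligible transcripts. These pairs share libraries, and each genotype leaves 4 free deviations, so correlations of this size are common. The first principal component of the scaled deviations held 34.0% of the variance (27.8% over all eligible transcripts), with weights of 0.69 for wild-type rat 3, 0.37 for SHR-Tti2+/- rat 5, -0.42 for SHR-Tti2+/- rat 2 and -0.30 for wild-type rat 1. The next components held 12.9% and 11.6%.

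Average-linkage clustering, with groups joined down to a mean correlation of 0.6, gave 7 covariation groups of at least 5 members, numbered by size. They held 79 members, and the other 71 fell into 32 smaller groups, 9 of them a single member.

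**Figure D3:**
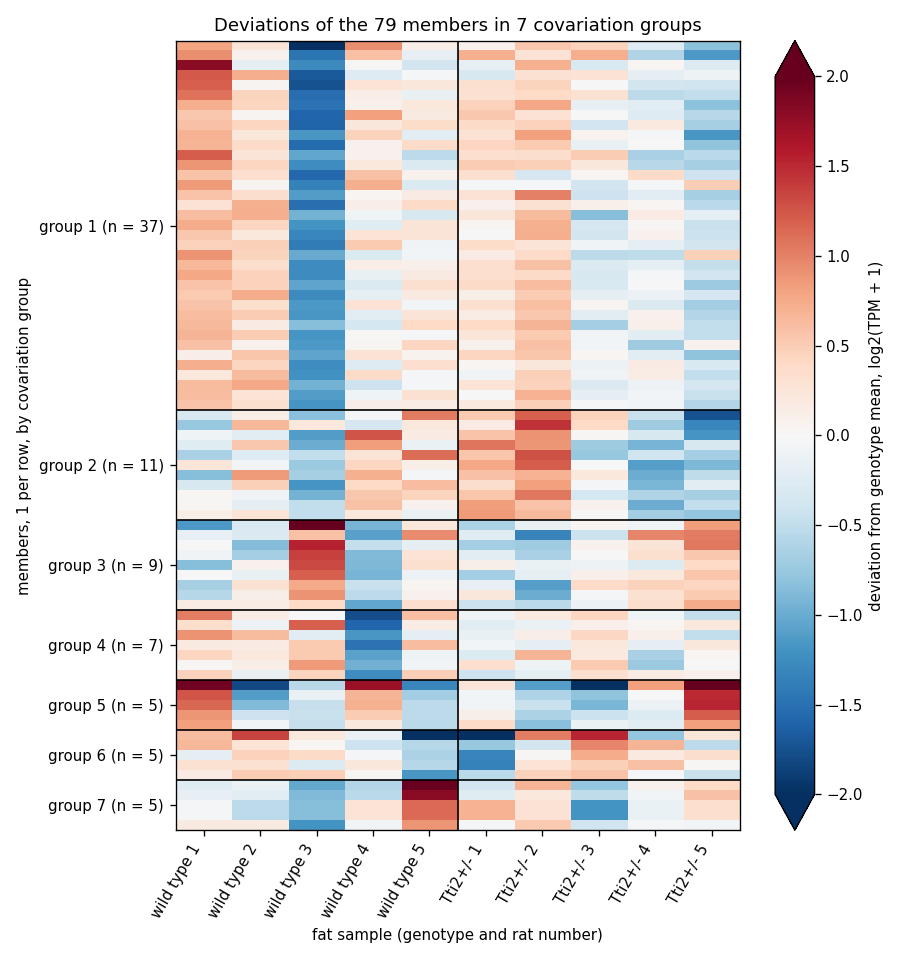
Deviation from the genotype mean in log2(TPM + 1) of the 79 members in covariation groups 1 to 7 (rows) in the 10 fat samples (columns), with blue below and red above the mean and colours saturating at -2 and 2. All 37 members of group 1 are low in wild-type rat 3, the 7 of group 4 are low in wild-type rat 4, and the 5 of group 5 are high in SHR-Tti2+/- rat 5 and wild-type rat 1.

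Group 1, the largest, held 37 members that were low together in wild-type rat 3. The median correlation between its members was 0.83. The median TPM of the group in wild-type rats 1 to 5 was 19.8, 18.4, 4.67, 16.3 and 12.0, and in SHR-Tti2+/- rats 1 to 5 it was 16.8, 18.4, 13.7, 11.4 and 9.64. All 37 lay below the genotype mean in wild-type rat 3, by a mean of 1.29 on the log2 scale, and 35 had their largest share of squared deviation there. The next lowest sample was SHR-Tti2+/- rat 5, in which 34 of the 37 lay below the genotype mean, and wild-type rat 1 was the highest, with all 37 above it. In bulk tissue, fewer cells of a type and less RNA per cell cannot be told apart.

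Most members of group 1 had their highest mean level in fat. This was so for 27 of the 37, where 41.8% of all eligible transcripts were highest in fat. The level was highest in liver for 5, in soleus for 2 and in hippocampus for 3. In fat, 14 of the 37 were at 5 or more times the level of every other tissue. The median level over the group was 14.2 TPM in fat, 2.92 TPM in liver, 0.856 TPM in soleus and 1.22 TPM in hippocampus. The group also held the most abundant member of all, at rank 122 and 4706 bases long, with 1448, 1339, 421, 815 and 1124 TPM in wild-type rats 1 to 5 and 1214, 1591, 942, 1164 and 730 TPM in SHR-Tti2+/- rats 1 to 5. Its lowest value was in wild-type rat 3, as for the group. The member of group 1 with the highest SD, at rank 12, had 1.74 TPM in wild-type rat 3 and 6.13 to 21.7 TPM in the others. The sum of other fat transcripts was not low in wild-type rat 3. The 134 transcripts with a mean of at least 10 TPM in fat and 20 or more times every other tissue, members left out, summed to 100493 TPM in that sample, the highest of the 10, where the others had 86043 to 99154 TPM.

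Group 3 ran opposite to group 1. It had 9 members, and the means of the 2 groups over the 10 samples correlated at -0.86. Its median TPM was 6.85, 10.3, 21.6, 5.48 and 12.9 in wild-type rats 1 to 5, and 6.08, 4.94, 10.4, 11.8 and 15.9 in SHR-Tti2+/- rats 1 to 5. All 9 members were above the genotype mean in wild-type rat 3 and in SHR-Tti2+/- rat 5, the samples in which group 1 was lowest, and all 9 were below it in wild-type rat 4 and SHR-Tti2+/- rat 2. Rank 9 was the most uneven, with 51.1 TPM in wild-type rat 3 and 4.33 to 21.4 TPM in the others, and it was nearly restricted to fat (0.0702 TPM in liver, 0.181 TPM in soleus and 2.35 TPM in hippocampus). With the groups kept as formed on all 10 samples and wild-type rat 3 left out, their means still ran opposite, at a correlation of -0.71 over 9 samples. Leaving out each other sample in turn gave -0.95 to -0.85. The members chosen depended more on wild-type rat 3. When it was left out and the selection repeated, 10 of the 37 members of group 1 and 6 of the 9 of group 3 stayed among the 150. When instead the original 150 members were clustered again without it, the largest group had 23 members, 20 of them from group 1.

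Group 2 held 11 members, with a median length of 4050 bases, that were highest in SHR-Tti2+/- rats 2 and 1. Its median TPM was 4.63, 8.77, 3.49, 8.23 and 7.12 in wild-type rats 1 to 5, and 12.0, 15.3, 6.80, 4.14 and 4.63 in SHR-Tti2+/- rats 1 to 5. All 11 were above the genotype mean in SHR-Tti2+/- rats 1 and 2 and below it in SHR-Tti2+/- rats 4 and 5, so the heterozygotes split while the wild-type rats lay closer together. None of the 11 was driven by a single rat. The mean deviation of group 2 over the 10 samples correlated at 0.63 with that of group 1 and at -0.79 with that of group 3. Rank 14, as an example, had 7.46, 10.6, 4.93, 9.27 and 20.8 TPM in wild-type rats 1 to 5, and 42.9, 68.8, 41.0, 21.3 and 8.14 TPM in SHR-Tti2+/- rats 1 to 5. The group was expressed at similar median levels in fat (6.89 TPM), soleus (4.80 TPM) and hippocampus (5.18 TPM), with 3.28 TPM in liver. It was the group least dependent on 1 sample, since 7 of its 11 members stayed among the 150 in each of the 10 repeats that left out 1 sample, against 6 of 37 in group 1 and 3 of 9 in group 3.

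Group 4 consisted of 7 members that were low in wild-type rat 4 and closer together elsewhere. The median TPM was 11.1, 6.97, 12.1, 2.73 and 7.98 in wild-type rats 1 to 5, and 8.35, 8.34, 9.94, 7.05 and 6.73 in SHR-Tti2+/- rats 1 to 5. All 7 had their largest share of squared deviation in wild-type rat 4, where they lay a mean of 1.32 below the genotype mean on the log2 scale. At rank 40 the level was 0.736 TPM there and 4.87 to 11.1 TPM in the others, and the member of rank 100 had 3.97 TPM there and 12.4 to 20.2 TPM in the others. Without wild-type rat 4, 0 of the 7 stayed among the 150.

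Group 6 had 5 members that were lowest in SHR-Tti2+/- rat 1 and wild-type rat 5. Its median TPM was 12.4, 15.9, 12.9, 9.96 and 3.25 in wild-type rats 1 to 5, and 3.21, 10.6, 18.2, 10.4 and 9.50 in SHR-Tti2+/- rats 1 to 5. Rank 4 was the widest, with 1.37 TPM in SHR-Tti2+/- rat 1, 1.91 TPM in wild-type rat 5 and 4.49 to 29.8 TPM in the others. The low samples thus came from both genotypes.

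Group 7 had 5 members, each above its genotype mean in wild-type rat 5 and each below it in wild-type rat 3 and SHR-Tti2+/- rat 3. Its median TPM was 18.5, 13.0, 9.29, 21.8 and 43.2 in wild-type rats 1 to 5, and 26.5, 27.8, 9.26, 20.5 and 25.9 in SHR-Tti2+/- rats 1 to 5. The mean level was highest in fat for all 5. At rank 15 the level was 46.2 TPM in wild-type rat 5 and 4.88 to 17.2 TPM in the others, and at rank 38 it was 23.9 TPM there and 2.87 to 8.19 TPM in the others. The members of rank 46 and rank 47, both 402 bases long, had the same estimated count in each of the 10 fat samples. Their reads could not be told apart by the quantification, so they count as 1 measurement, and group 7 holds 4 separate ones.

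Group 5 consisted of 5 members that are liver transcripts by level. Their median level was 5.55 TPM in fat and 4593 TPM in liver, and all 5 were highest in the liver. The group was highest in SHR-Tti2+/- rat 5, followed by wild-type rat 1, SHR-Tti2+/- rat 1 and wild-type rat 4, with a median of 8.99, 2.82, 3.11, 6.38 and 2.89 TPM in wild-type rats 1 to 5 and 7.18, 3.79, 3.30, 5.03 and 17.7 TPM in SHR-Tti2+/- rats 1 to 5. The median correlation between its members, 0.93, was the highest of the 7 groups. In SHR-Tti2+/- rat 5 the fat held 0.392%, 0.366%, 0.385%, 1.64% and 0.423% of the mean liver level of the members of ranks 2, 13, 18, 67 and 120, in this order. The mean liver levels of the 5 members ran from 764 to 21421 TPM, and the source of these shares was not tested.

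Other liver transcripts in fat were high in the same 5 samples as group 5, though not in the same order below the 2 highest. The 399 transcripts with a mean of at least 10 TPM in liver and 100 or more times the level of fat, members left out, summed to 841, 170, 282, 628 and 204 TPM in wild-type rats 1 to 5 and to 455, 259, 218, 515 and 1342 TPM in SHR-Tti2+/- rats 1 to 5. The 5 highest sums fell in SHR-Tti2+/- rat 5, wild-type rat 1, wild-type rat 4, SHR-Tti2+/- rat 4 and SHR-Tti2+/- rat 1, and the 5 highest values of ENSRNOT00000046857.3 fell in these samples in this order, while its lower 5 were ordered differently. SHR-Tti2+/- rat 5 was the highest sample for 248 of the 399. Another 3 members met the same liver criterion. Rank 147 was also highest in SHR-Tti2+/- rat 5, at 16.4 TPM, while rank 27 belonged to group 3 and rank 75 to group 1. In rank 27 wild-type rat 3, at 21.6 TPM, was as high as SHR-Tti2+/- rat 5, at 21.3 TPM, and rank 75 was lowest in wild-type rat 3, at 2.82 TPM. In SHR-Tti2+/- rat 5 the fat held 1.72%, 0.321% and 0.527% of the mean liver level of ranks 27, 75 and 147. The part of liver RNA in these levels was not tested.

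The 4 members that were abundant in the soleus were high in a single fat sample. They formed 1 covariation group of 4, at ranks 7, 16, 19 and 142, with soleus means of 13521, 5125, 8964 and 6545 TPM. SHR-Tti2+/- rat 4 had 65.6, 33.6, 21.7 and 20.8 TPM of them, and the next highest fat sample had 9.07, 7.94, 6.19 and 10.1 TPM. These levels were 0.485%, 0.656%, 0.242% and 0.318% of the soleus mean. The 224 transcripts restricted to soleus in the same way, members left out, summed to 1049 TPM in SHR-Tti2+/- rat 4 and to 81.0 to 163 TPM in the other 9 samples, and that sample was the highest for 165 of the 224. The sum was 6.45 times that of the next sample. Without SHR-Tti2+/- rat 4, 0 of the 4 members stayed among the 150, and without SHR-Tti2+/- rat 5, 1 of the 5 members of group 5 did. The part of muscle RNA in these levels was not tested. None of the members met the criterion for the hippocampus, and the 728 transcripts restricted to it summed to between 150 and 172 TPM in every fat sample.

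**Figure D4:**
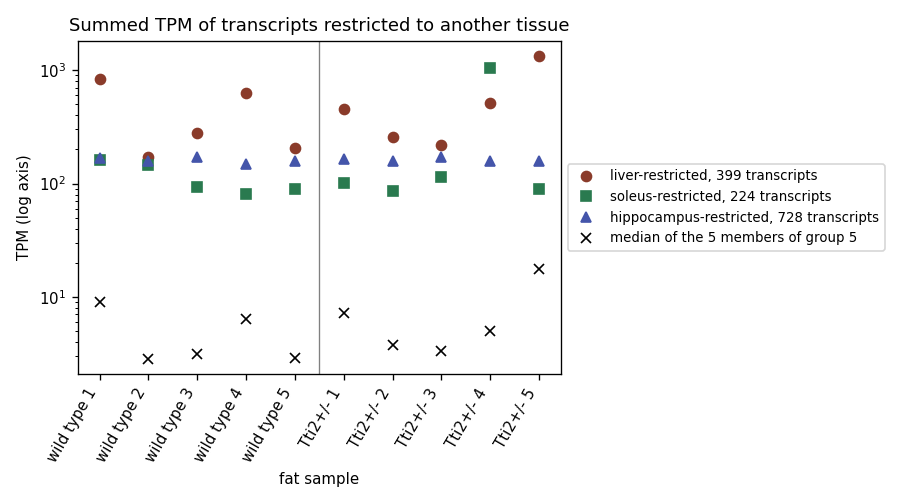
Summed TPM (log axis) in each fat sample of 399 liver-restricted, 224 soleus-restricted and 728 hippocampus-restricted transcripts, members left out, and the median TPM of the 5 members of group 5. The liver sum is highest in SHR-Tti2+/- rat 5 at 1342 TPM, the soleus sum in SHR-Tti2+/- rat 4 at 1049 TPM, and the hippocampus sum stays between 150 and 172 TPM.

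Outside the 7 larger groups, several members of high SD were low in 1 rat alone. The member of rank 6, abundant in fat (mean 45.8 TPM) and hippocampus (38.4 TPM), was lowest in SHR-Tti2+/- rat 2, at a level 30.4 times below its highest sample, and had 18.9 to 91.4 TPM in the others. The member of rank 111, of the same smaller group of 4 and only 363 bases long, had 73.5 TPM in that rat and 221 to 330 TPM in the others, and SHR-Tti2+/- rat 2 held 71.8% of its squared deviation, the highest share among the 150. The member of rank 11 had 1.01 TPM in wild-type rat 2 and 8.18 to 24.7 TPM elsewhere. The rat that drove a member of high SD thus changed from member to member. The member of rank 5, nearly restricted to fat among the 4 tissues (0.964 TPM in hippocampus and 0.147 TPM or less in liver and soleus), was low in 3 rats of both genotypes, with 0.582 TPM in wild-type rat 1, 4.74 TPM in wild-type rat 4, 4.35 TPM in SHR-Tti2+/- rat 1 and 17.4 to 22.2 TPM in the others.

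One pair of members moved in opposite directions while its sum stayed nearly level. The members of ranks 21 and 78, of 1638 and 1653 bases, correlated at -0.95. The first had 5.86, 10.6, 12.4, 9.38 and 1.67 TPM in wild-type rats 1 to 5 and 7.19, 14.6, 3.17, 13.2 and 15.4 TPM in SHR-Tti2+/- rats 1 to 5. The second had 11.1, 6.72, 6.59, 6.60 and 15.4 TPM in wild-type rats 1 to 5 and 7.58, 3.67, 14.2, 3.72 and 3.34 TPM in SHR-Tti2+/- rats 1 to 5. On the scale of log2 CPM, counts scaled to library size, the SD was 1.02 and 0.71 for the members and 0.10 for their summed counts. Whether the pair belongs to 1 gene is not given by the files. This pair was picked after its values were seen, and in 230 of the 654 pairs of members that correlated at -0.6 or less the sum had under 50% of the SD of either member.

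The next question was whether a rat that deviated in fat deviated in the same way in its other tissues. Rat numbers in the labels tie the samples of an animal together. Both fat and liver were sequenced in 8 rats, fat and soleus in 8, and fat and hippocampus in 9. Rat 3 of either genotype had no liver sample, rat 1 of either genotype no soleus sample, and wild-type rat 4 no hippocampus sample. So wild-type rat 3, which held the largest deviation of 43 members, did not enter the comparison with liver. Wild-type rat 4, in which group 4 was low, did not enter that with hippocampus. Over the members with a mean of at least 1 TPM in the other tissue, the median correlation of the deviations was 0.009 with liver (117 members), 0.004 with soleus (96 members) and 0.028 with hippocampus (106 members). The medians over all eligible transcripts were 0.13, 0.023 and 0.0006. A correlation of 0.5 or more was found with liver in 16.2% of the members and 18.8% of all eligible transcripts, with soleus in 13.5% and 12.8%, and with hippocampus in 14.2% and 9.47%. Of the 70 members measured in all 3, 2 reached 0.5 in each and 0 reached 0.8. The medians of the members thus lay near 0 in each tissue, with the wide error that 8 or 9 points give each correlation. The members were given to fat because their SD was largest there, a choice that was not made for all eligible transcripts. Levels near 1 TPM in the other tissue also carry more counting error. The comparison with all eligible transcripts is therefore a description.

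**Figure D5:**
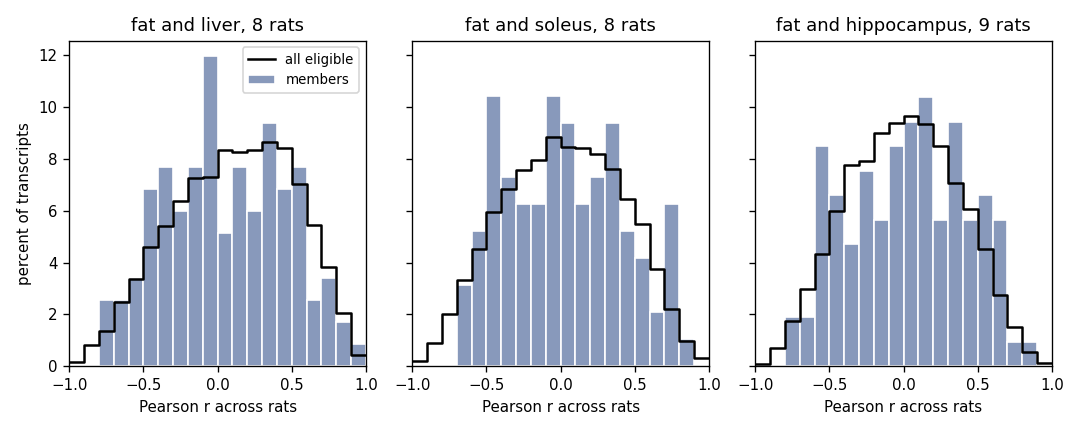
Distribution of Pearson correlations, across 8 or 9 rats, between the deviations of a transcript in fat and in liver, soleus or hippocampus, as percent of the members (bars) and of all eligible transcripts (line), in bins of 0.1. The members centre near 0 in each tissue, with medians of 0.009, 0.004 and 0.028.

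The genotype difference was subtracted before the members were chosen, so it can be compared between the genotypes, with the caution that large spread makes such a test weak. All 150 members passed the count filter of the test in fat, and edgeR's quasi-likelihood test called 0 of them, where a call needs a fold change of 1.5 or more and a Benjamini-Hochberg adjusted p under 0.1. The share called among all 20221 transcripts tested in fat was 0%. With another test, the Wald test of sleuth, the paper did report differing transcripts in perirenal fat at the same limits. The 0% thus holds for the edgeR test and does not show that fat lacks a genotype difference. DESeq2 also called 0 of the members (0.126% of all transcripts to which it gave an adjusted p were called). At an unadjusted p under 0.05 there were 3 members (2.0%), against 6.96% of all tested transcripts, and the lowest adjusted p was 0.684. Without wild-type rat 3 there were 10 such members (6.67%, against 6.91% of all), without SHR-Tti2+/- rat 4 there were 4 (2.67%, against 7.44%) and without SHR-Tti2+/- rat 5 there were 7 (4.67%, against 8.93%), each with 0 calls. The TPM of the genotypes failed to overlap in 0 members, against 1.1% of all tested transcripts.

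The error of the members' fold changes was large. The median SE of the log2 fold change was 0.404, against 0.134 over all tested transcripts, and the median size of the log2 fold change without regard to sign was 0.24, against 0.10. The level in SHR-Tti2+/- fat was above that in wild-type fat for 88 members (58.7%, against 49.0% of all tested transcripts), and the median log2 fold change was 0.09, against -0.0034 over all. Among the covariation groups, group 2 had the largest median log2 fold change, 0.64, with 10 of its 11 members higher in SHR-Tti2+/- fat, 2 of them at an unadjusted p under 0.05 and none called (lowest edgeR adjusted p = 0.684). Its heterozygotes split into 2 high and 2 low rats, as given above. The median was 0.42 in group 5, with all 5 members higher and none called, and between -0.12 and 0.12 in the other groups.

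In the other tissues the members were mostly tested without a call. In liver, 130 members were tested and edgeR called 1, where 0.206% of all 18423 transcripts were called, and 17 members (13.1%) were at an unadjusted p under 0.05, against 10.1%. DESeq2 also called 1 member in liver, where it called 0.864% of all. In soleus, 132 were tested and 0 called by edgeR (0.00552% of all were called), with 10 members (7.58%) at an unadjusted p under 0.05, against 6.84%. DESeq2 called 4 members there, a larger share than the 0.262% it called of all, so the count in soleus depended on the test. In hippocampus, 120 were tested and 0 called by edgeR and by DESeq2 (0.00483% of all were called by edgeR and 0.0699% by DESeq2). There 15 members (12.5%) were at an unadjusted p under 0.05, against 4.22% of all. Without wild-type rat 2 it was 12 members (10.4%), against 5.35%. The paper left out 1 outlying hippocampus sample, which it does not name, whereas the main test here kept all 10. Whether that sample was wild-type rat 2 is not known, and the share without each other hippocampus sample is not given here. The TPM of the genotypes failed to overlap in 2 members in liver (1.54%, against 2.52% of all tested transcripts), in 2 in soleus (1.52%, against 1.39%) and in 1 in hippocampus (0.833%, against 1.04%).

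The member called in liver was that of rank 141, in group 3 and 1249 bases long, and was singled out after its values were seen. In liver it had 1.82, 2.81, 4.07, 3.82 and 2.25 TPM in wild-type rats 1, 2, 4, 5 and 6, and 9.56, 9.78, 17.0, 25.3 and 13.3 TPM in SHR-Tti2+/- rats 1, 2, 4, 5 and 6. All heterozygotes lay above all wild-type rats, with means of 15.0 ± 6.53 and 2.96 ± 0.974 TPM (SD, n = 5), and edgeR gave a log2 fold change of 2.37 (SE 0.330) with an adjusted p = 0.0321. The adjusted p of edgeR stayed between 0.0326 and 0.0909 when each liver sample was left out in turn. In fat the same transcript had 29.8, 29.8, 35.4, 12.5 and 34.1 TPM in wild-type rats 1 to 5 and 30.1, 27.5, 37.3, 52.0 and 68.8 TPM in SHR-Tti2+/- rats 1 to 5. There the genotypes overlapped and the log2 fold change was 0.60 (SE 0.307, edgeR adjusted p = 0.758). It was 0.56 (SE 0.204, edgeR adjusted p = 0.679) in soleus and -0.14 (SE 0.164, edgeR adjusted p = 0.942) in hippocampus. Whether the liver difference differs from that in the other tissues was not tested.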

How the data were processed

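The authors made polyadenylated, strand-specific single-end libraries and estimated transcript levels with kallisto on Ensembl transcripts. The submitters' processing notes name version 0.46.0 and the methods another one, so the version is uncertain. The deposited tables give, per transcript, an estimated count, which need not be whole, and TPM, which the authors' software scaled for length and library size.

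Members, groups and lists were chosen with earlier results of these data known. Deviations were computed from log2(TPM + 1) in Python 3.11.15 with NumPy 2.4.6, SciPy 1.17.1 and pandas 2.3.3. For the genotype tests, estimated counts were rounded and transcripts with at least 5 counts in at least 47% of a tissue's samples were fitted per tissue in R 4.3.3 with edgeR 4.0.16 (TMM, quasi-likelihood F-test, genotype only, Benjamini-Hochberg over all tested transcripts). Exact permutation tests compared the means of log2(TPM + 1) over the assignments of the samples and allow no p below 0.00794. Both the test and the selection were tested on simulated data. Alternatives were DESeq2 1.42.0, limma 3.58.1 on log2 CPM, median-of-ratios scaling, other filters and thresholds, other measures of spread and linkage, the rat number as a block, leaving out single samples and, added after seeing the data, the list without members abundant in liver or soleus.

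Estimated counts in fat summed to 22416531 to 26822062 per sample. Chi-square over its degrees of freedom was at least 13.2 for fat samples of 1 genotype, so each sample was counted as 1 replicate. Nothing in the labels says more of the samples than their rat. The 2 members of highest SD whose largest deviation was upward and the 2 downward were named by identifier, with the last 2 members and the next 2 transcripts for the border. Gene lists and markers need gene names and were not used here.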

Additional observations from a re-analysis of the deposited data

Results flagged for a closer look

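In the 32 groups of 5 samples examined, 4 values lay far from the other 4 samples of their genotype by Dixon's 95% limit of 0.71. The members were chosen by their spread, so single far samples among them follow partly from the choice. The count of 4 is therefore a description, and no chance level is given for it. The mean deviation of group 4 was -1.32 in wild-type rat 4 (ratio of gap to range 0.816). The sum of liver-restricted transcripts was 1342 TPM in SHR-Tti2+/- rat 5 (0.736), and that of soleus-restricted transcripts was 1049 TPM in SHR-Tti2+/- rat 4 (0.971). The TPM of ENSRNOT00000018097.6 was 65.6 in SHR-Tti2+/- rat 4 (0.959), the same sample as the soleus sum.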

How the results depend on the processing

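Of 156 alternatives tried on the main results, 145 kept the result and 11 moved it. The limits for this were wide. A count or percentage was taken as kept within a factor of 1.5, and a count of 0 only at 0. A median correlation with another tissue was taken as kept within 1 SD of the members' correlations, 0.39 to 0.41, which a median near 0 hardly leaves. The fold changes of the 4 named members, some of which changed sign, are not among the 156. Of the 150 members, 34 stayed with a mean TPM of at least 20, which is the number of members that reach this level, 38 stayed without the count minimum, 83 with the median absolute deviation in place of the SD, and 109 to 135 under the others. The largest group had 21 members with complete linkage, 23 to 46 when a sample was left out, the lowest without wild-type rat 3, and 35 to 40 under the others. Members driven by 1 rat numbered 74 around the genotype median, 16 at a share of at least 0.6 and 37 to 61 otherwise. The median correlation with another tissue stayed between -0.052 and 0.14. The 0 calls among members in fat and the 1 call in liver held under all 16 alternatives each, also with the rat number as a replicate block. The number ties no animals across genotypes, and the correlation of same-numbered fat samples lay between -0.17 and 0.13. In soleus DESeq2 called 4 members, and 0 to 1 were called when a sample was left out (1 without wild-type rat 2 and 1 without wild-type rat 4). In hippocampus it was 0 to 1, with the 1 without SHR-Tti2+/- rat 3. Calls over all transcripts by DESeq2 were 20 in fat, 119 in liver, 40 in soleus and 11 in hippocampus, and with the block 11 in liver and 0 in soleus and hippocampus. Without SHR-Tti2+/- rat 4, 1 transcript was called in fat.

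The log2 fold change in fat of ENSRNOT00000092851.1, -0.0057, was 0.35 with limma, 0.10 with the replicate block and -0.35 to 0.39 when a sample was left out. That of ENSRNOT00000057787.4, 0.20, was 1.34 with limma, 0.81 with the block and -0.12 to 0.78 when a sample was left out. That of ENSRNOT00000018097.6, 1.48, was 0.48 with limma, 0.27 with the block and -0.34 to 1.75 when a sample was left out, and that of ENSRNOT00000046857.3, 0.79, was 0.86 with limma, 0.61 with the block and -0.16 to 1.33 when a sample was left out. The causes of these changes were not tested. With 5 samples a genotype and 8 or 9 rats shared between tissues, small differences and correlations were not detectable.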
